A study of Oryctolagus cuniculus with 16 samples.

Results

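The genes described here are the 9 core genes of cellular oxygen sensing, the subunits of the hypoxia-inducible factor (HIF) and the enzymes that control it. They were chosen by symbol from the 20255 genes of the authors' table, and all 9 were found and passed the filter on low counts. The 3 alpha subunit genes are *HIF1A*, *EPAS1* and *HIF3A*, the beta subunit gene is *ARNT*, the prolyl hydroxylase genes are *EGLN1*, *EGLN2* and *EGLN3*, *VHL* encodes the substrate receptor of a ubiquitin ligase, and *HIF1AN* encodes the asparaginyl hydroxylase. Total RNA-seq was run after removal of ribosomal RNA on the femoral heads of 5 rabbits modelling Perthes disease and of 3 controls labelled wild type (WT), with 1 library per rabbit. The paper describes the rabbits it bought as wild type, and it states no difference in genotype between the groups. Perthes disease is a loss of blood supply to the femoral head in childhood. In the Perthes group, the hip was opened surgically in rabbits aged 8 weeks, the femoral neck was tied off with a suture and the ligamentum teres was cut. The age of the control rabbits, the time between surgery and sampling, and whether the controls had a sham operation are not given in the sources used here. Control rabbit 3 was numbered by its library code, since its title repeats the number 2.

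In cells with enough oxygen, the EGLN enzymes use oxygen, iron and 2-oxoglutarate to hydroxylate prolines of the HIF alpha subunits, which lets VHL bind them and mark them for destruction. When oxygen is scarce, the alpha subunits persist, pair with ARNT and switch on genes of glycolysis, blood vessel growth and oxygen supply, among them *EGLN3* and *EGLN1* themselves. Much of this control acts on protein, which RNA-seq does not measure. In growing bone, HIF is known for its part in the survival of chondrocytes in avascular cartilage and in coupling vessel growth to bone formation.

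Library totals ranged from 27331732 to 29461494 counts in Perthes rabbits and from 26757094 to 28783093 in controls, so that 1 count was worth 0.0339 to 0.0374 CPM (counts divided by the library total, on the usual per-million scale) before TMM scaling, which corrects for differences in library composition. Perthes rabbit 4 stood apart from the other 7 rabbits on the second principal component of log2 CPM (-78.4, against -7.51 to 27.5). The cartilage and bone markers of a femoral head were present in every library, with summed levels of 9 chondrocyte genes between 40093 and 156380 CPM and of 9 osteoblast genes between 46310 and 145630 CPM, and the quasi-likelihood test of edgeR called 0 genes of either list at an adjusted p below 0.05. At an unadjusted p below 0.05, 3 chondrocyte and 2 osteoblast genes passed in edgeR, all higher in Perthes rabbits, and DESeq2 called 0 and 1 after adjustment. Of all genes tested, 31.9% passed at that unadjusted level in edgeR, and DESeq2 called 23.8% after adjustment. *HIF1A*, *ARNT* and *EGLN2* overlap other genes in RefSeq, as does the protein-coding gene that RefSeq names *HIF3A*. The counts were made on the reference annotation that the paper names, which need not hold the same overlaps. Per the paper, the libraries were prepared with a directional kit. Reads of the overlaps cannot be told apart if the counting ignored strand, which is not given in the sources used here. Over all 15305 genes tested in edgeR, 15.1% had an adjusted p below 0.05, 6.21% higher and 8.87% lower in Perthes rabbits. With library totals in place of TMM scaling, 15.6% were called, 4.43% higher and 11.1% lower.

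Against that background, 3 of the 9 genes were higher in Perthes rabbits (*HIF1A*, *EGLN1* and *EGLN3*), 1 was lower (the gene listed as *HIF3A*), and 5 did not pass the test. In TMM-scaled CPM, the groups did not overlap in any rabbit for the same 4 genes, against 25.2% of all genes tested (11.2% above and 13.9% below the controls). For *HIF1A* this depended on the scaling. The change of *EGLN3* was the largest in size and that of *EGLN1* the smallest of the 4. DESeq2, which called 23.8% of all genes tested, also called these 3 genes higher and this 1 lower. With library totals alone, 1 gene was still called higher (*EGLN3*) and 1 lower (*HIF3A*). At the thresholds of the paper, log2 fold changes beyond 2 and an adjusted p below 1e-05, edgeR called 0 of all genes tested and DESeq2 called 200 (1.31%), with none of the 9 genes among them. The paper, which used DESeq2, reported more genes and names *HIF3A* among the differentially expressed lncRNAs of its network. It also states that its differentially expressed genes correlated with reported inflammation genes, among them HIFa, without saying which alpha subunit gene is meant. Here DESeq2 gave *HIF3A* a log2 fold change of -2.20 and an adjusted p of 0.000263. The reason for the difference was not tested. The calls over all genes depended on single rabbits of both groups. They went from 951 higher and 1357 lower to 385 and 646 without Perthes rabbit 3 and to 351 and 550 without Perthes rabbit 5. Without control rabbit 2, edgeR called 0 of all genes (3722 at an unadjusted p below 0.05), and without control rabbit 1 it called 73 higher and 184 lower. With all rabbits, at an unadjusted p below 0.05, 4883 of all genes tested (31.9%) and 4 of the 9 genes passed in edgeR. In bulk tissue, a change in the number of cells of a type and a change in RNA per cell cannot be told apart.

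**Figure D1:**
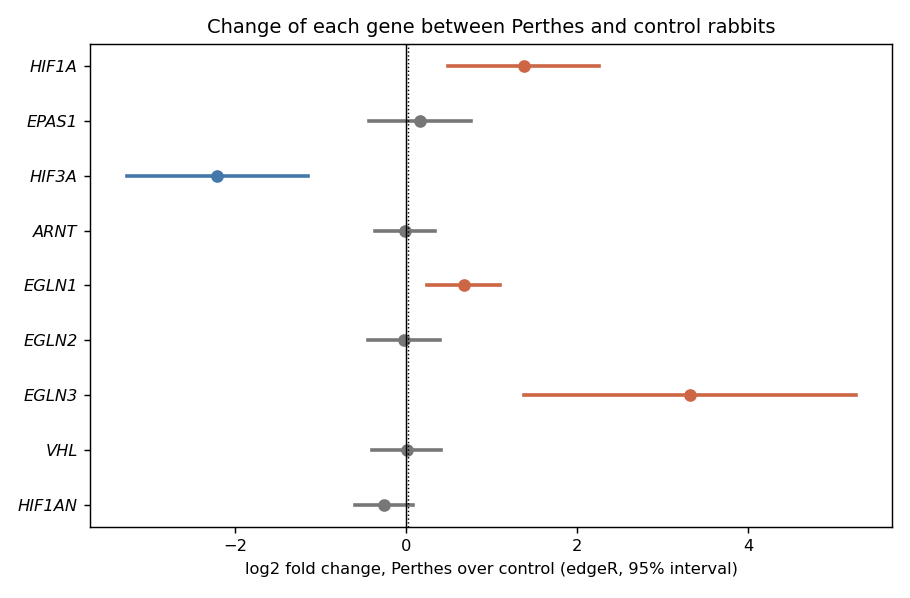
Log2 fold change of each gene between 5 Perthes and 3 control rabbits from edgeR, with its 95% interval; orange marks genes called higher, blue genes called lower and grey genes that did not pass, and the dotted line is the median of all genes tested. The intervals of *HIF1A*, *EGLN1*, *EGLN3* and *HIF3A* lie off 0, and the other 5 span it.

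*HIF1A* (gene 100009579) encodes the alpha subunit present in most cell types. It had 543, 303, 234, 532 and 411 CPM in Perthes rabbits 1 to 5 and 89.0, 144 and 234 CPM in control rabbits 1 to 3. After TMM scaling every Perthes rabbit lay above every control, but Perthes rabbit 3 and control rabbit 3 differed by only 0.0333 CPM. Before scaling, Perthes rabbit 3 had 6383 of 29348034 counts and control rabbit 3 had 7046 of 28783093. Their order was then reversed, and the groups overlapped. The Perthes rabbits averaged 405 ± 137 CPM (SD, n = 5) and the controls 156 ± 73.4 CPM (SD, n = 3). This gave a log2 difference of 1.38 (standard error of 0.39, 95% interval 0.50 to 2.26, adjusted p = 0.0455 from edgeR). The rise lay near the threshold. With library totals alone the adjusted p from edgeR was 0.0655, and without Perthes rabbits 1, 3, 4 and 5 and control rabbits 1 and 2 in turn it was 0.0755, 0.0510, 0.0634, 0.0875, 0.141 and 0.149, with log2 fold changes between 1.1 and 1.52.

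*EPAS1* (100348809) encodes the alpha subunit known from endothelium and from cells that make erythropoietin. Its values were 216, 276, 274, 404 and 352 CPM in Perthes rabbits and 189, 330 and 298 CPM in controls. The groups overlapped, with the highest values in Perthes rabbits 4 and 5 and the lowest in control rabbit 1. The means were 305 ± 73.7 CPM (SD, n = 5) and 272 ± 74.3 CPM (SD, n = 3), and the log2 fold change was 0.16 (95% interval -0.43 to 0.76, adjusted p = 0.704 from edgeR). Of 12 endothelial markers, 0 were called higher and 1 lower at an adjusted p below 0.05 in edgeR (2 each by DESeq2), with a median log2 fold change of -0.30 and summed levels of 378 to 587 CPM in Perthes rabbits and 461 to 579 CPM in controls. The edgeR share called lower, 8.33%, was near the 8.87% of all genes tested. DESeq2 called 11.2% of all genes tested higher and 12.5% lower.

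The gene listed as *HIF3A* (103345725) is typed as a lncRNA by the authors and carries no description or annotation in their table. Its counts were 215, 128 and 114 in the controls and 21, 17, 26, 69 and 28 in the Perthes rabbits. The Perthes values were all lower than the controls, and that of Perthes rabbit 4 was the highest of its group. In CPM the level was 1.15 ± 0.772 (SD, n = 5) against 5.33 ± 2.07 (SD, n = 3), and the log2 fold change -2.21 (standard error 0.47, 95% interval -3.27 to -1.14, adjusted p = 0.0187 from edgeR). The adjusted p from edgeR was 0.0513, 0.0534, 0.0833 and 0.0605 without Perthes rabbits 3 and 5 and control rabbits 1 and 2, at log2 fold changes of -2.14, -2.13, -1.84 and -2.31.

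By its identifier, this gene is not the protein-coding *HIF3A* of the RefSeq annotation of the rabbit assembly mOryCun1.1. That annotation does not list its identifier. It lists 80.5% of all identifiers in the authors' table, so such an absence is not particular to this gene. RefSeq gives the symbol to gene 103346277, a protein-coding gene that the authors' table lists as LOC103346277, types as an mRNA and describes as hypoxia-inducible factor 3-alpha. In RefSeq it overlaps LOC127488373, a lncRNA. LOC103346277 had few counts, with 26, 12 and 8 in controls and 2, 10, 12, 12 and 12 in the Perthes group. The groups overlapped, and Perthes rabbit 1 was the lowest and control rabbit 1 the highest. The Perthes rabbits averaged 0.345 ± 0.158 CPM (SD, n = 5) and the controls 0.539 ± 0.346 CPM (SD, n = 3), and the log2 fold change was -0.64 (95% interval -1.97 to 0.70, adjusted p = 0.490 from edgeR). The fall is that of the lncRNA entry, and a difference in the protein-coding gene was not detectable at these counts. The lookup of the second gene was added after the data were seen.

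*ARNT* (100008996) encodes the beta subunit with which HIF alpha subunits pair. Its values ran from 27.9 to 37.9 CPM in Perthes rabbits and from 30.5 to 34.7 CPM in controls. The groups overlapped fully. The means of 32.0 ± 4.63 CPM (SD, n = 5) and 32.3 ± 2.16 CPM (SD, n = 3) gave a log2 fold change of -0.0099 (95% interval -0.36 to 0.34, adjusted p = 0.971 from edgeR).

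**Figure D2:**
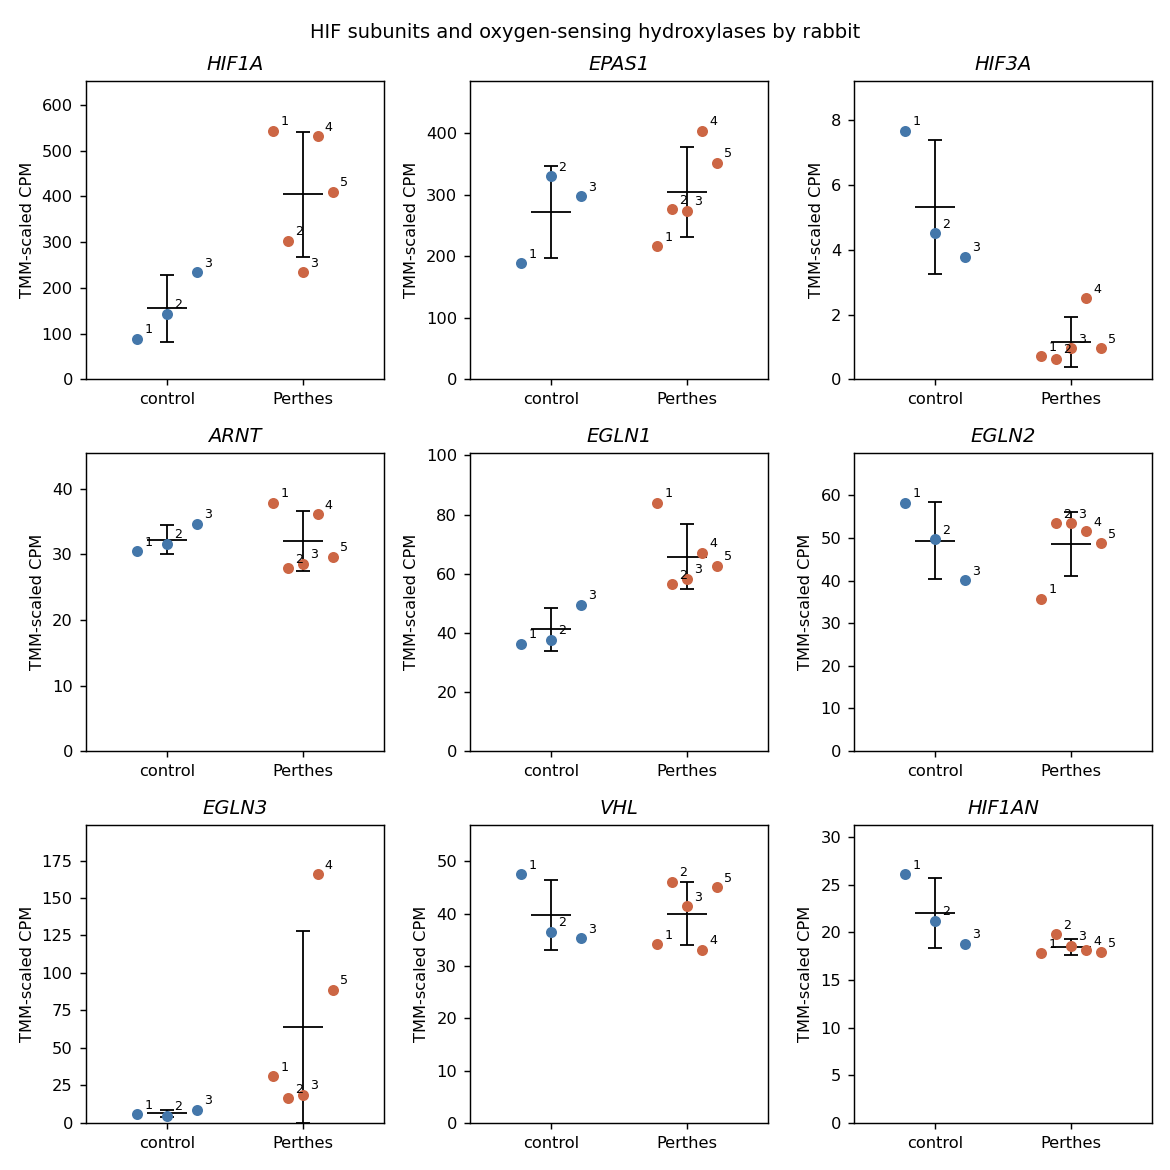
TMM-scaled CPM of each of the 9 genes in every rabbit; points carry the rabbit's number, and the horizontal bars and whiskers are the mean and SD of 3 control and 5 Perthes rabbits. Each panel has its own axis from 0, and levels are not comparable between panels because gene lengths differ. *EGLN3* runs from 16.3 to 166 CPM in Perthes rabbits, above 8.91 CPM in the highest control.

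Among the prolyl hydroxylases, *EGLN1* (100357337) encodes the enzyme known as the main regulator of HIF alpha in most cells at normal oxygen. It had 84.1, 56.4, 58.2, 67.1 and 62.7 CPM in Perthes rabbits 1 to 5 and 36.4, 37.6 and 49.5 CPM in the controls. All Perthes rabbits lay above all controls, with Perthes rabbit 1 the highest. The controls averaged 41.2 ± 7.25 CPM (SD, n = 3) and the Perthes rabbits 65.7 ± 11.1 CPM (SD, n = 5), with a rise of 0.67 on the log2 scale (standard error 0.19, 95% interval 0.25 to 1.1, adjusted p = 0.0428 from edgeR). The call was lost with library totals alone (adjusted p = 0.102 from edgeR) and without the filter on low counts (0.0510). It was also lost without Perthes rabbits 1, 3, 4 and 5 and control rabbits 1 and 2 (0.0533, 0.0687, 0.0557, 0.0796, 0.140 and 0.160), while the log2 fold change stayed between 0.57 and 0.71 in these fits.

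*EGLN2* (100337938), whose enzyme is mostly nuclear, had 35.7, 53.4, 53.5, 51.6 and 48.8 CPM in Perthes rabbits and 58.3, 49.8 and 40.1 CPM in controls. Perthes rabbit 1 was the lowest of all 8 rabbits and control rabbit 1 the highest, and the groups overlapped. The log2 fold change was -0.02 (95% interval -0.45 to 0.40, adjusted p = 0.944 from edgeR).

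*EGLN3* (100354210) encodes the hydroxylase that is itself a classical HIF target. It had 31.1, 16.3, 18.9, 166 and 88.8 CPM in Perthes rabbits 1 to 5 and 5.68, 4.69 and 8.91 CPM in the controls. Every Perthes rabbit lay above every control, and Perthes rabbits 4 and 5 were far above the other 3. The controls averaged 6.43 ± 2.21 CPM (SD, n = 3) and the Perthes rabbits 64.2 ± 64.0 CPM (SD, n = 5), with a rise of 3.32 on the log2 scale (standard error 0.86, 95% interval 1.37 to 5.26, adjusted p = 0.0338 from edgeR), or 9.98-fold. Without Perthes rabbit 4, the gene was still called, at a log2 fold change of 2.59 and an adjusted p of 0.0300 from edgeR. The adjusted p was 0.0704, 0.125, 0.123 and 0.0623 without Perthes rabbit 5 and control rabbits 1, 2 and 3, at log2 fold changes of 3.20, 3.24, 3.13 and 3.63.

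*VHL* (100350053) ranged from 33.1 to 46.1 CPM in Perthes rabbits and from 35.4 to 47.5 CPM in controls, with a log2 fold change of 0.0067 (95% interval -0.39 to 0.41, adjusted p = 0.983 from edgeR). *HIF1AN* (100347080), whose enzyme blocks the coactivator binding of HIF alpha, had 17.8, 19.8, 18.6, 18.1 and 17.9 CPM in Perthes rabbits and 26.1, 21.2 and 18.8 CPM in controls. The Perthes rabbits lay within a narrow band and overlapped control rabbit 3 alone. The log2 fold change was -0.26 (95% interval -0.60 to 0.08, adjusted p = 0.273 from edgeR). The 95% intervals of *ARNT*, *EGLN2* and *VHL* together ran from -0.45 to 0.41.

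**Figure D3:**
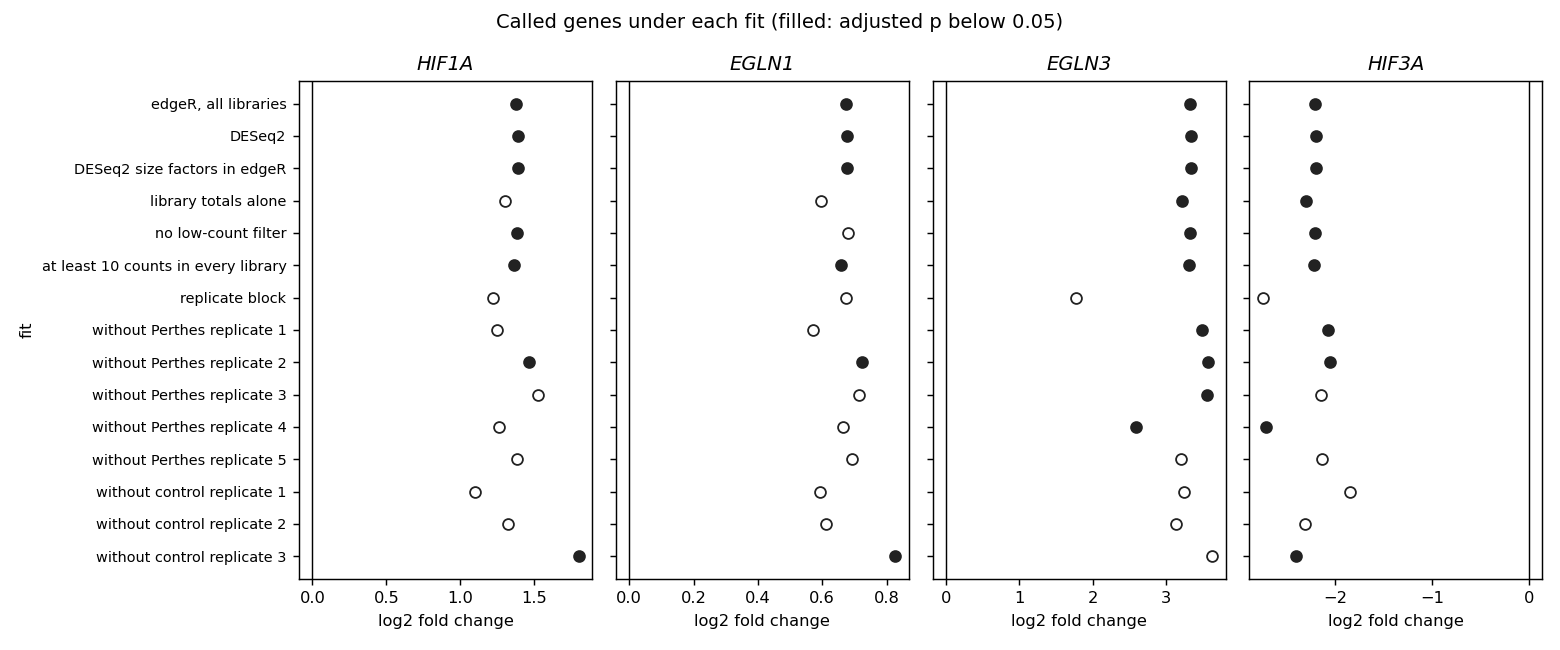
Log2 fold changes of the 4 called genes under each alternative fit, with filled points where the adjusted p was below 0.05 and open points where it was not. The sign was the same in all 15 fits of each gene. Both filled and open points occur for each, and the lowest *EGLN3* value, 1.78, is from the fit with the replicate block. In that fit, Perthes rabbits 4 and 5 had no control of the same number, so they did not inform the group difference.

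Markers of other cells differed between the groups beside these genes. Over all genes tested in edgeR, 6.21% were called higher and 8.87% lower, and 31.9% had an unadjusted p below 0.05. By list, 62.5% of macrophage markers were called higher, and 12.5%, 57.1%, 11.1% and 14.3% of macrophage, neutrophil, erythroid and B cell markers lower. Of 8 macrophage markers, 5 were called higher and 1 lower at an adjusted p below 0.05 in edgeR, and their summed level was 785 to 7044 CPM in Perthes rabbits and 530 to 639 CPM in controls. *GPNMB* made up most of the sum in the Perthes rabbits other than rabbit 4. Without *GPNMB*, a split made after the values were seen, Perthes rabbit 4 had 471 CPM, below the controls at 507 to 619 CPM, and the other 4 had 924 to 1555 CPM. Of 7 neutrophil markers, 4 were called lower, with sums of 25.6 to 1515 CPM against 5763 to 18716 CPM. Of 9 erythroid markers, 1 was called lower and all 9 were lower at an unadjusted p below 0.05, and the sums were 496 to 20195 CPM against 25884 to 42264 CPM, again without overlap. B cell markers had 1 of 7 called lower, and none of the 3 muscle genes tested of 7 listed or of the 5 adipocyte genes was called (1 muscle and 0 adipocyte genes at an unadjusted p below 0.05 in edgeR, 0 of either in DESeq2). No listed marker was at 0 in all libraries. The part of these cells in the changes of *HIF1A*, *EGLN1*, *EGLN3* and *HIF3A* was not tested.

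The balance between the genes was compared as log2 ratios within each library, which do not depend on scaling between libraries. The log2 ratio of *EPAS1* over *HIF1A* was 1.08, 1.20 and 0.35 in control rabbits 1 to 3 and -1.33, -0.13, 0.23, -0.40 and -0.22 in Perthes rabbits 1 to 5. The groups did not overlap, and the ratio was 2.37-fold lower in Perthes rabbits, a difference of -1.25. That of *HIF1A* over *ARNT* was 2.16 ± 0.61 (SD, n = 3) in controls and 3.59 ± 0.36 (SD, n = 5) in Perthes rabbits, a difference of 1.44, and that of *HIF1A* over *HIF1AN* differed by 1.66, both without overlap. For *HIF1A* over *HIF1AN*, however, Perthes rabbit 3 (3.65) and control rabbit 3 (3.63) were nearly equal. *EPAS1* over *ARNT* differed by 0.19 and overlapped (two-sided exact permutation test, p = 0.50). *HIF1A* over *VHL* differed by 1.41 with overlap (two-sided exact permutation test, p = 0.107).

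Within the EGLN family, the log2 ratio of *EGLN3* over *EGLN1* was -2.66, -2.99 and -2.47 in the controls and -1.43, -1.79, -1.62, 1.30 and 0.50 in Perthes rabbits. The difference was 2.10, with the highest ratios in Perthes rabbits 4 and 5 and the other 3 also above all controls. *EGLN3* over *EGLN2* differed by 2.79 without overlap, and *EGLN2* over *EGLN1* by -0.69 with overlap (two-sided exact permutation test, p = 0.107). The 5 ratios without overlap each reached p = 0.0357, the smallest that an exact two-sided test of 5 rabbits against 3 allows, and over the 8 ratios compared their adjusted value was 0.0571, above 0.05.

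**Figure D4:**
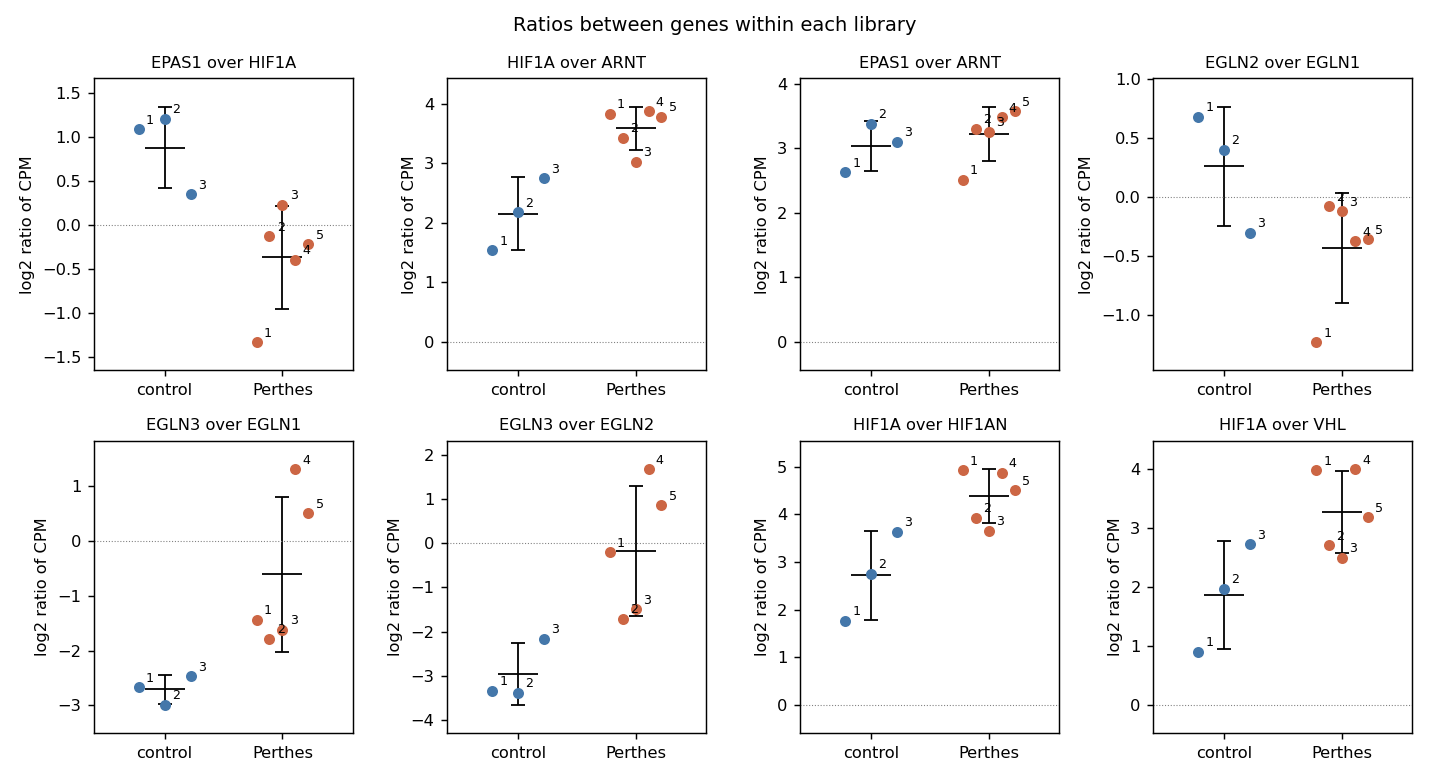
Log2 ratio of the CPM of each pair of genes in every rabbit, with the mean and SD of 3 controls and 5 Perthes rabbits; points carry the rabbit's number. In *EPAS1* over *HIF1A*, the Perthes rabbits lie between -1.33 and 0.23, below the 3 controls at 0.35 to 1.20.

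Genes for other proteins that act on HIF were counted list by list. Of 10 partners and coactivators, 0 were called higher and 2 lower (edgeR, adjusted p below 0.05). These are 0% and 20%, against 6.21% and 8.87% of all genes tested. *CITED2*, which competes with HIF for its coactivators, fell by 1.14 on the log2 scale, with 61.7 ± 14.2 CPM in controls (SD, n = 3) and 28.0 ± 6.28 CPM in Perthes rabbits (SD, n = 5, adjusted p = 0.0159 from edgeR). *EP300*, the histone acetyltransferase that HIF recruits, fell by 0.77, with 343 ± 55.9 CPM in controls (SD, n = 3) and 201 ± 12.9 CPM in Perthes rabbits (SD, n = 5, adjusted p = 0.0182 from edgeR). Of 11 genes of the VHL ubiquitin ligase and its regulators, 1 was lower (9.09%, against 8.87% of all genes tested). It was *UBE2S* at -1.07 (adjusted p = 0.0474 from edgeR), a ubiquitin-conjugating enzyme known to act on VHL. The ligase subunits *ELOB*, *ELOC*, *CUL2* and *RBX1* had log2 fold changes of -0.02, 0.26, 0.17 and -0.49 and did not pass.

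Of 17 genes for the synthesis and stability of HIF alpha, 2 were lower (11.8%, against 8.87% of all genes tested) and 15 did not pass. The 2 were *SIAH2*, a ubiquitin ligase known to act on EGLN proteins, at -1.29, and *SENP1*, a protease that removes SUMO from HIF alpha, at -0.54 (adjusted p = 0.0479 from edgeR for each). Of 22 other 2-oxoglutarate oxygenases, which share their cofactors with the EGLN enzymes, 3 were higher and 0 lower. The 3 are 13.6% of the list, against 6.21% of all genes tested, and all 3 modify collagen. *P4HA3*, an alpha subunit of collagen prolyl hydroxylase, rose by 2.44 on the log2 scale, with 7.0 ± 3.05 CPM in controls (SD, n = 3) and 38.1 ± 9.0 CPM in Perthes rabbits (SD, n = 5, adjusted p = 0.0118 from edgeR). *P4HA2*, another such subunit, and *PLOD1*, a collagen lysyl hydroxylase, rose by 0.98 and 1.06 on the log2 scale (adjusted p = 0.0427 and 0.0440 from edgeR). With library totals alone, 1 gene of this list was called higher and 1 lower. DESeq2 called 5 higher and 1 lower, where it called 11.2% and 12.5% of all genes tested. These lists had median log2 fold changes of 0.09, 0.18, -0.07 and 0.02 in the order given, against 0.02 over all genes tested.

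Of 37 genes known as HIF targets, leaving out *EGLN1* and *EGLN3*, 4 were called higher and 6 lower, and 27 did not pass (edgeR, adjusted p below 0.05), while DESeq2 called 13 higher and 6 lower. The shares were 10.8% and 16.2% in edgeR, against 6.21% and 8.87% of all genes tested, and the DESeq2 counts stand against 11.2% and 12.5% of all genes tested. The median log2 fold change of the list was 0.91, and 0.43 without Perthes rabbit 4. The 4 that rose were *ADM*, a vasodilator peptide, *HMOX1*, the enzyme that breaks down heme, *BHLHE40*, a transcriptional repressor, and *ANKRD37*. *ADM* had 3.69 ± 2.37 CPM in controls (SD, n = 3) and 19.7 ± 10.9 CPM in Perthes rabbits (SD, n = 5), and rose by 2.41 (adjusted p = 0.0269 from edgeR), and *HMOX1*, *BHLHE40* and *ANKRD37* rose by 2.41, 1.43 and 1.01 on the log2 scale. The 4 largest falls were in *PFKFB4*, a regulator of glycolysis, *CXCR4*, a chemokine receptor of leukocytes and stem cells, *BNIP3L*, a mitophagy receptor that red cell precursors use, and *MXI1*, an antagonist of MYC, at -1.42, -1.40, -1.27 and -1.16. *CITED2* is on this list too. The erythroid and neutrophil marker sums given above were lower in the same rabbits, and their part in these falls was not tested.

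Many HIF targets shared the highest pair of *EGLN3* among Perthes rabbits. The order within the pair was not compared, and in *HMOX1* Perthes rabbit 5 (468 CPM) was above Perthes rabbit 4 (269 CPM). Perthes rabbits 4 and 5 were the highest pair of the group for *EGLN3*, and were so for 22 of the 37 target genes (59.5%), against 6.31% of all genes tested and 1 of the other 8 core genes, *EPAS1*. Perthes rabbit 4 was the highest of its group for 25 target genes (67.6%) and the lowest for 0, against 21.8% and 26% of all genes tested, and is also the library that stood apart on the second principal component. All 9 chondrocyte markers were highest in Perthes rabbit 4 as well, with a sum of 156380 CPM against 40093 to 82615 CPM in the other 4 Perthes rabbits. In the same rabbit 7 of 8 macrophage markers were the lowest of the group, with a sum of 785 CPM against 5109 to 7044 CPM. Perthes rabbits 4 and 5 were the highest pair for 3 of the 9 chondrocyte and 0 of the 8 macrophage markers. The part of these cells in the high values of *EGLN3* and the HIF targets in Perthes rabbits 4 and 5 was not tested. *VEGFA*, the growth factor for blood vessels, was highest in this pair. It had 69.9, 65.6, 66.1, 354 and 225 CPM in Perthes rabbits 1 to 5 and 47.7, 77.5 and 91.4 CPM in the controls. *CA9*, a carbonic anhydrase, had 12, 15.2, 12.8, 81.3 and 35.3 CPM against 3.00, 4.55 and 12.6 CPM. Neither gene passed between the groups (log2 fold changes of 1.11 and 2.22, adjusted p = 0.259 and 0.0896 from edgeR). This pair and these 2 genes were chosen after their values were seen, and the counts are a description of 5 rabbits with no test.

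**Figure D5:**
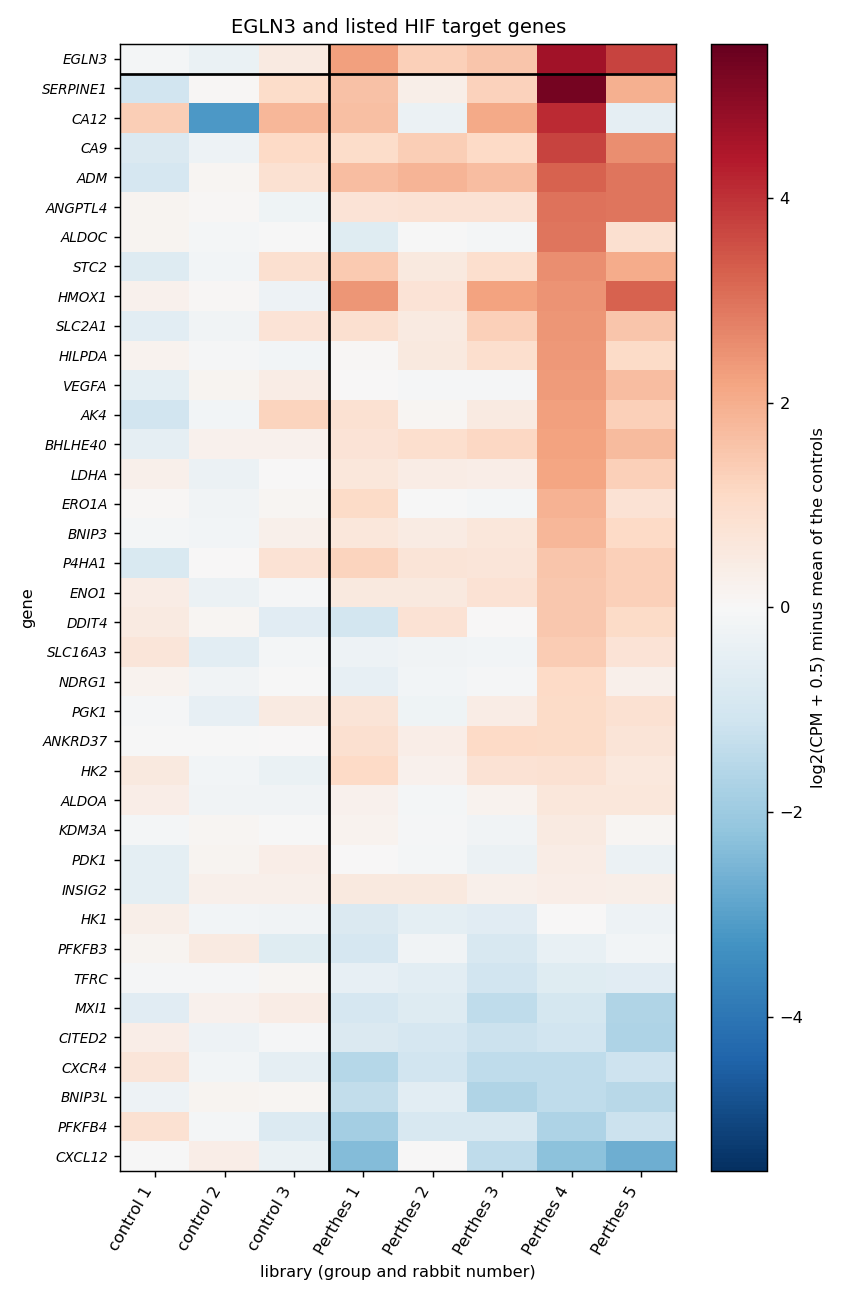
Heatmap of log2(CPM + 0.5) relative to the mean of the 3 controls, for *EGLN3* (top row) and the 37 HIF target genes ordered by their value in Perthes rabbit 4; columns are the 8 rabbits, red is above and blue below the control mean. Red in the upper rows is deepest in Perthes rabbit 4, followed in most rows by Perthes rabbit 5. The 22 genes with these 2 rabbits highest, in either order, share the highest pair of *EGLN3*.

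The profile of each gene over the 8 libraries was compared with those of 11837 named genes by the root-mean-square difference of log2 CPM, each centred on its own mean. The nearest to *EGLN3* were *BBOX1*, a 2-oxoglutarate oxygenase of carnitine synthesis, at 0.36, *ENO2*, a glycolytic enolase, at 0.49 and *BDKRB1*, a bradykinin receptor, at 0.52, where *EGLN3* itself varied by 1.71. Their log2 fold changes between the groups were 3.85, 2.87 and 2.76, which the choice by likeness to *EGLN3* largely fixed. The nearest to *HIF1A* were *S100A10*, *RAB30* and *COL25A1* at 0.16, 0.18 and 0.19, where *HIF1A* varied by 0.85. For *EGLN1* they were *CCDC6*, *FUT11* and *GINM1* at 0.08, 0.10 and 0.10, and for the lncRNA listed as *HIF3A* they were *ERP27*, *KLF5* and *IRAK3* at 0.29, 0.43 and 0.45. *EPAS1* lay nearest to *GTF2IRD1*, *ZNF239* and *DDR1* at 0.10, 0.12 and 0.13, and *VHL* to *ATP5F1B*, *NDUFA10* and *ATP5PO*, at 0.06 each. *ARNT*, *EGLN2* and *HIF1AN* were nearest to *GANC*, *TECPR2* and *RNF44* at 0.06, 0.06 and 0.05. These 3 genes themselves varied by 0.15, 0.22 and 0.17.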

How the data were processed

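Per the study's methods and the submitters' processing notes, reads were cleaned with SOAPnuke and aligned by HISAT2 2.0.4, and gene counts came from RSEM 1.1.17 and HTSeq 1.99.2. The values that the authors deposited are expected counts (estimated counts per gene) without normalization. All 72 values of the 9 genes were whole numbers, and others were rounded. The libraries were prepared with a directional kit, but whether counting used strand is not given in the sources used here. In RefSeq, whose gene models need not match those counted, *HIF1A*, *ARNT*, *EGLN2* and LOC103346277 overlap other genes. Another 8 columns of per-sample values, which repeat those used, and the small RNA table were left out.

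Counts of 5 Perthes and 3 control rabbits were tested with edgeR 4.0.16 in R 4.3.3 (filterByExpr, TMM scaling, quasi-likelihood F-test, Benjamini-Hochberg adjustment over 15305 genes). CPM values carry the TMM factors. A standard error is the log2 fold change divided by the square root of F. Log2 CPM used a prior count of 2. Ratios were tested by exact two-sided permutation over 56 divisions with scipy 1.17.1. Labels give separate rabbits as replicates. In simulated counts of this comparison, with a log2 change of 3 given to 200 of the 15305 genes, edgeR recovered 99.5% with 4 wrong calls and DESeq2 1.42.0 recovered 98.0% with 20. Every simulated gene had the same spread between rabbits (biological coefficient of variation 0.361). These rates therefore do not apply to genes with smaller changes or a wider spread. Alternatives were DESeq2, its size factors, library totals, other filters, another prior count, the replicate number as a block and leaving out each rabbit.

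The 9 genes, the gene lists and the ratios were chosen with earlier results of these data known. Genes named were the 9, up to 4 called genes with the largest change per list and direction, and the 3 nearest profiles of each of the 9 among genes with a mean of at least 1 CPM. Levels were not compared between genes, because lengths were not used.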

Additional observations from a re-analysis of the deposited data

Results flagged for a closer look

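In the Perthes group of 5 rabbits, the level of each gene and each ratio was examined for a rabbit whose gap to its nearest neighbour took an unusual share of the group's range, 17 groups of values in all. By chance about 5% of such groups stand out, and 3 did. For the lncRNA listed as *HIF3A*, the gap of Perthes rabbit 4, the highest, was 0.713 of the range of log2 CPM. For *EGLN2*, the gap of Perthes rabbit 1, the lowest, was 0.773 of the range. For the log2 ratio of *EGLN2* over *EGLN1*, the gap of Perthes rabbit 1 was 0.742 of the range, which rests in part on the same *EGLN2* value. Without Perthes rabbit 4 the log2 fold change of *HIF3A* was -2.71 (adjusted p = 0.0059 from edgeR), against -2.21 with all rabbits. Without Perthes rabbit 1 that of *EGLN2* was 0.07 against -0.02, and neither *EGLN2* value passed.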

How the results depend on the processing

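The directions of *HIF1A*, *EGLN1*, *EGLN3* and *HIF3A* held in every fit run, and their calls did not. With library totals alone, *HIF1A* (1.30) and *EGLN1* (0.60) no longer passed and 1 gene was called higher, and without the filter *EGLN1* (0.68) no longer passed. *VHL* changed sign to -0.083 with library totals and to -0.010 with at least 10 counts in every library. DESeq2 called 1720 genes higher, and 35 of the 200 pathway list genes against 16 in edgeR. Same-numbered rabbits of the 2 groups deviated from their group means with correlations of -0.317, 0.161 and -0.238, and not every rabbit correlated best with its own number, so the numbers were not taken as pairs. With the replicate number as a block, edgeR called 0 of all genes tested, 0 of the pathway list genes and 0 of the 9 genes in either direction, while 3151 genes, 47 list genes and 2 of the 9 (*EGLN3* and *HIF3A*) had an unadjusted p below 0.05. The log2 fold changes of *HIF1A*, *EGLN1*, *EGLN3*, *HIF3A* and *EPAS1* with the block were 1.22, 0.67, 1.78, -2.74 and -0.060, and the difference of the *EPAS1* over *ARNT* ratio was -0.012. Perthes rabbits 4 and 5, the 2 with the highest *EGLN3*, have no control of the same number. The estimates with the block therefore rest on rabbits 1 to 3 of each group. LOC103346277 in place of the lncRNA entry gave -0.64. Leaving out each rabbit in turn gave 0 to 3 of the 9 genes higher and 0 to 1 lower, 0 to 24 list genes higher and 0 to 18 lower, and 0 to 1267 of all genes higher and 0 to 1628 lower. Without control rabbit 2 edgeR called 0 genes, with 3722 of all and 4 of the 9 at an unadjusted p below 0.05. Log2 fold changes ranged over these fits from 1.1 to 1.80 for *HIF1A*, 0.57 to 0.83 for *EGLN1*, 2.59 to 3.63 for *EGLN3*, -2.71 to -1.84 for *HIF3A*, -0.043 to 0.32 for *EPAS1*, -0.077 to 0.045 for *ARNT*, -0.15 to 0.12 for *EGLN2* and -0.072 to 0.16 for *VHL*, and the *EPAS1* over *ARNT* difference from -0.017 to 0.37. The cause of these changes was not tested, beyond the rabbits that the block sets aside and the smaller number of samples or genes in some fits.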

Other observations

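Among genes whose proteins share the PAS domain with HIF, 1 of 8 tested was called higher and 0 lower (edgeR, adjusted p below 0.05). These are 12.5% and 0%, against 6.21% and 8.87% of all genes tested. DESeq2 called 2 higher and 0 lower, where it called 11.2% and 12.5% of all genes tested. The gene called in edgeR was *AHR*, the aryl hydrocarbon receptor, which like HIF alpha pairs with *ARNT*. It rose by 1.28 on the log2 scale, with 10.8 ± 1.18 CPM in controls (SD, n = 3) and 26.1 ± 9.13 CPM in Perthes rabbits (SD, n = 5, adjusted p = 0.0218 from edgeR). All 5 Perthes rabbits, at 18.7 to 39.3 CPM, lay above the controls at 9.48 to 11.8 CPM.

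The authors' annotation places 97 other genes in the KEGG HIF-1 signaling pathway, of which 90 were tested, 7 were called higher and 7 lower, with a median log2 fold change of 0.21. Each count is 7.78% of those tested, near the 6.21% and 8.87% of all genes tested. The largest rises were in *ENO2*, *HMOX1* and *CDKN1A*, an inhibitor of the cell cycle, at 2.87, 2.41 and 2.16, and LOC100348124, described as a phosphoglycerate kinase, rose by 1.25, and may share reads with *PGK1*. With library totals alone, 5 genes of the list were called higher and 9 lower, and DESeq2 called 13 higher and 11 lower, where it called 11.2% and 12.5% of all genes tested. The largest falls were in *HK3*, the hexokinase known from leukocytes, *PRKCB* and *PIK3CD*, signaling kinases of immune cells, and *CDKN1B*, another cell cycle inhibitor, at -2.68, -2.0, -1.75 and -1.02. The neutrophil marker sums given in the report were also lower in Perthes rabbits, and the part of these cells was not tested. *CDKN1B* had 38.2, 47.4 and 55.1 CPM in control rabbits 1 to 3 and 19.0 to 27.7 CPM in Perthes rabbits.

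The GO term for the response to hypoxia held 41 other genes, of which 40 were tested, 3 were called higher and 5 lower, with a median of 0.37. These are 7.5% and 12.5% of those tested, against 6.21% and 8.87% of all genes tested. *PLAU*, the urokinase plasminogen activator, rose by 2.60 on the log2 scale, with 23.2 ± 3.99 CPM in controls (SD, n = 3) and 141 ± 57.0 CPM in Perthes rabbits (SD, n = 5, adjusted p = 0.0118 from edgeR). *EDNRA*, an endothelin receptor, and *PLOD1* rose by 1.27 and 1.06 on the log2 scale. *ADA*, *CXCR4*, *CASP1* and *AGER* had the largest falls, at -1.57, -1.40, -1.12 and -0.94. With library totals alone, 1 gene of this list was called higher and 6 lower, and DESeq2 called 8 higher and 7 lower, against 11.2% and 12.5% of all genes tested.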
